A study of Mus musculus and Rattus norvegicus with 28 samples.

Results

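Constant promoters were the regions of open chromatin that all 8 mouse ATAC-seq libraries held within 2.5 kb of a transcript start. Peaks of the 8 libraries that overlapped by at least 1 bp were merged into 113857 regions. A region was a constant promoter when each library had a peak in it and its midpoint lay within 2.5 kb of the 5′ end of an annotated transcript. This gave 4521 constant promoters, 3.97% of all regions and 13.2% of the 34140 promoter regions. They belonged to 4425 genes by the nearest start. Because peaks chose these regions, every peak value below is a description and was not tested. Expression of the genes was measured in other libraries and did not enter the choice of regions. It did enter the naming of genes that share a start: a protein-coding gene was taken first, then the one of highest mean FPKM.

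A promoter is the stretch of DNA around a transcript start where RNA polymerase and general transcription factors assemble, usually kept free of nucleosomes. ATAC-seq uses Tn5 transposase to insert sequencing adapters into such open DNA. Promoters of broadly used genes mostly lie in CpG islands, stretches rich in CG dinucleotides that remain accessible in many tissues whether the gene is strongly or weakly transcribed. Around birth, cardiomyocytes move from a fetal to a neonatal program of contraction and energy use, so promoters that remain accessible throughout can serve genes whose transcripts change and genes whose transcripts do not.

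The cells came from left ventricles of wild-type C57BL/6 mice of both sexes, at embryonic day 18.5 (E18.5) and at postnatal days 1, 3 and 7 (P1, P3 and P7). No group carried a transgene or received a treatment, and cardiomyocytes were freed by trypsin and collagenase digestion and then pre-plated, which leaves behind cells that attach fast. Each ATAC-seq library was made from 50000 cells, with 2 libraries per time point and assay that the methods call biological replications, so each spread rests on 2 libraries. RNA-seq depth was 29.3 to 37.5 M aligned reads per library, worked out from coverage. ATAC-seq read depth is not given in the sources used here, and the peak lists held between 13149 (E18.5 replicate 1) and 95257 peaks (P3 replicate 1).

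Markers of the labelled cell type were present in every library and lower in each later pair. The summed FPKM (fragments per kilobase of transcript, scaled to the aligned fragments of the library) of 24 cardiomyocyte markers was 37111 and 47692 in the E18.5 libraries, 18900 and 28854 in P1, 12416 and 10438 in P3, and 3562 and 1679 in P7. The sum of 14 fibroblast markers was 586 and 582 in the E18.5 libraries, 1849 and 2090.0 in P1, 2399 and 2556 in P3, and 4101 and 4984 in P7. From E18.5 to P7 the sum of 11 smooth muscle and pericyte markers went from 518 and 631 to 1741 and 1947, and that of 9 erythroid markers from 29048 and 35397 to 13.2 and 14.6. In bulk libraries, fewer cells of a type and less RNA per cell cannot be told apart. The part of these shifts in the expression differences given below was not tested.

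The sequences below show the span of these regions. Each is the 200 bp window centred on the region's midpoint, read on the strand of the gene from GRCm38 (mm10). Capitals mark matches on either strand. The letters searched were GGGCGG for the GC box of Sp factors, CCGGAAG for the core motif of ETS factors, and AGCCAAT for the CCAAT box read by the factor NF-Y. They were AAGATGG for the zinc finger protein YY1, TGACTCA for the dimers of Fos and Jun that form AP1, AGATAA for zinc finger proteins of the GATA family, and CACGTG for the E box of helix-loop-helix proteins. The other motifs searched have no match in these windows, and these were TATAAA for the TATA box, TGACGTCA for the leucine zipper protein CREB, TTTCCCGC for the cell cycle factors of the E2F family, and the sites of NRF1 and MEF2. Sh3glb1, which encodes endophilin B1, had the steadiest expression among constant promoter genes with a mean FPKM of at least 10, Pdgfra rose most and Tnni1 fell most at P7, and Hspa1a had the largest fall at P1. Ndufv1 stands for the respiratory chain, and the Ssr4 window holds the start of a pair of genes that moved in opposite directions. Golph3l had the strongest peak among windows present once in the genome, while Sspn stands for windows present many times.
Sh3glb1, chr3:144719567-144719766, - strand: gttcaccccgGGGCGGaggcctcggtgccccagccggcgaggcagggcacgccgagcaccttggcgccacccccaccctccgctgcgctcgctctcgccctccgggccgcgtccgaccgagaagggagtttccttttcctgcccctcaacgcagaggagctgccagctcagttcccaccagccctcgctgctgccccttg
Pdgfra, chr5:75156066-75156265, + strand: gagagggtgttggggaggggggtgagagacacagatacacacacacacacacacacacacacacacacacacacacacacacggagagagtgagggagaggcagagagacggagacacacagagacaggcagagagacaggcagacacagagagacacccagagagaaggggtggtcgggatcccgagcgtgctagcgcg
Tnni1, chr1:135800481-135800680, + strand: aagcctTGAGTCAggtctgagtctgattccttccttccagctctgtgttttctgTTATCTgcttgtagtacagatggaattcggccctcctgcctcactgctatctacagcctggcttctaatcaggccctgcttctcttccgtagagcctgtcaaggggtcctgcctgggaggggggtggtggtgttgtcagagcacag
Hspa1a, chr17:34972177-34972376, - strand: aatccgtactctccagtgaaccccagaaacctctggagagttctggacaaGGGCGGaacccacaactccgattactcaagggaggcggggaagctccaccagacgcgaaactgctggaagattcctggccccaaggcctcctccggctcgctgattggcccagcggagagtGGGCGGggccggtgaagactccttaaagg
Ndufv1, chr19:4012739-4012938, - strand: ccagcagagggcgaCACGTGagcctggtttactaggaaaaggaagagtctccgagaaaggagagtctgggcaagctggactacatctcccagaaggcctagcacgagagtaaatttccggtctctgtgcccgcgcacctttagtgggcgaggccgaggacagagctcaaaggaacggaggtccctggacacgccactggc
Ssr4, chrX:73786873-73787072, + strand: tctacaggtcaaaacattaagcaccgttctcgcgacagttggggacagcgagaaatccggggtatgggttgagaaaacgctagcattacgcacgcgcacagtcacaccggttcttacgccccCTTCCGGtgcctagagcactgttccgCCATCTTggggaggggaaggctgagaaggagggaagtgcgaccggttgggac
Golph3l, chr3:95588691-95588890, + strand: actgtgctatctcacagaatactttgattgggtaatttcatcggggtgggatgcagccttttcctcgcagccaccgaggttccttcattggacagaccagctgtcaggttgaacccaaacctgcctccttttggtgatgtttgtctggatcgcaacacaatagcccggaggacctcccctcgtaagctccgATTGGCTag
Sspn, chr6:145932828-145933027, + strand: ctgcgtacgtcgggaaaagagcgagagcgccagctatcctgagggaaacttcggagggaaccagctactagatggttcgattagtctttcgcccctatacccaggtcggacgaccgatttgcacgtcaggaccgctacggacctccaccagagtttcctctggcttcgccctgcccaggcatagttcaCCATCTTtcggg

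As merged regions, constant promoters were wide and mostly covered the transcript start. Their width was 959 bp at the median, with quartiles of 780 and 1176 bp and a range of 200 to 3805 bp, against a median of 391 bp for promoter regions held by 1 to 7 libraries and 691.5 bp for the 916 regions that all 8 libraries held away from starts. The merged region covered the start itself at 4247 constant promoters (93.9%) and at 38.5% of the other promoter regions. Width is the span of the merged peaks, so a region with peaks from all 8 libraries tends to be wider by construction. These contrasts with regions held by fewer libraries therefore partly follow from the merge. The midpoint lay within 100 bp of the start at 2559 of them (56.6%), at a median distance of 81.5 bp, and beyond 1 kb at 136. It fell in an exon at 2467 (54.6%), between genes at 1125 (24.9%) and in an intron at 929 (20.5%). At the limit of the rule, the last regions inside were Gm27702 at 2444.5 bp and Gm6607 at 2474 bp, with a median fold enrichment over the libraries of 3.05 and 6.98. The first regions outside were Sos1 at 2552.5 bp and Rabepk at 2563.5 bp, with 6.95 and 6.55.

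Most had the base composition of CpG islands. Among 4519 windows outside the mitochondrial genome, the median GC content was 66.5%, the median number of CG dinucleotides was 18, and the ratio of observed to expected CG was 0.833. In 82.4% the window was island-like, against 75.5% of promoter regions held by 7 libraries (2736 windows, median GC content 66%, ratio 0.815), 30.8% of all promoter regions held by 1 to 7 libraries and 35.4% of all 32843 RefSeq promoter windows of the same length, taken from 150 bases before to 50 bases after the start. A GC box, which binds factors of the Sp family, was present in 57.2% of constant promoters, 50.4% of those held by 7 libraries, 22.4% of those held by 1 to 7 and 32.2% of RefSeq promoters. An ETS core was in 11.1% of constant promoters, and in the other 3 sets in 11.2%, 4.02% and 7.54%. An NF-Y site was in 8.45%, against 4.53%, 2.54% and 6.39%. Matches to the letters of the AP1 site were in 2.66% of constant promoters, 3.44% of those held by 7 libraries, 3.60% of RefSeq promoters, 10.8% of promoter regions held by 1 to 7 libraries and 16.8% of the regions that all libraries held away from starts. The letters TATAAA were in 2.21%, against 8.92% of RefSeq promoters. In constant promoters and RefSeq promoters, respectively, GATA was in 1.97% and 6.92%, the E box in 6.09% and 5.45%, YY1 in 4.80% and 4.47%, CREB in 1.84% and 1.60%, E2F in 1.42% and 0.779%, NRF1 in 0.73% and 0.834%, and MEF2 in 0.133% and 0.0731%. Matches could overlap one another, and these windows are not at a fixed distance from the start, unlike the RefSeq windows.

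The 136 constant promoters centred over 1 kb from the start were less CG-rich than constant promoters as a whole. Their windows had a median GC content of 56.2% and were island-like in 25.7%, and 8.82% held the letters of an AP1 site. The window of Tnni1 was one of the less CG-rich, with 2 CG dinucleotides, an AP1 match and a GATA match, and its region began downstream of the start, in an intron. That of Hdac2, by contrast, held 29 CG dinucleotides. By motif, constant promoters of genes lower at P7 held an ETS core in 6.48% (463 windows), those of genes higher at P7 in 10.2% (463 windows) and those of genes not called in 12.03% (3126 windows).

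Peak strength, the fold enrichment of a peak over its local background, varied between libraries of the same time point. The median over constant promoters was 7.56 and 6.94 in the E18.5 libraries, 8.08 and 5.36 in P1, 8.59 and 10.07 in P3, and 7.03 and 7.12 in P7. In every library it was above the median of promoter regions held by 1 to 7 libraries, which ranged from 4.34 to 5.93. Promoter regions held by 7 libraries had medians of 4.69 to 8.13, below the constant promoters in each library. The regions that all libraries held away from starts had medians of 5.11 to 9.64, above the constant promoters in P1 replicate 1 (8.09 against 8.08), P3 replicate 1 (8.83 against 8.59) and P7 replicate 1 (7.34 against 7.03). The part of a region that a library's peaks covered varied more, from 238 bp (26.1% of the region) in P1 replicate 2 to 895 bp (95.7%) in P3 replicate 1. That P1 library also decided which promoters counted as constant: of 2736 promoter regions held by 7 libraries, 2150 lacked a peak in P1 replicate 2 alone, and without this library the number of constant promoter regions was 6671. Ranked by strength, constant promoters correlated between libraries of a time point with Spearman's rho of 0.625 to 0.795 and between time points with 0.387 to 0.829, over the same 4521 regions. These libraries share base composition and the merged regions, so the values are given as a description.

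**Figure D1:**
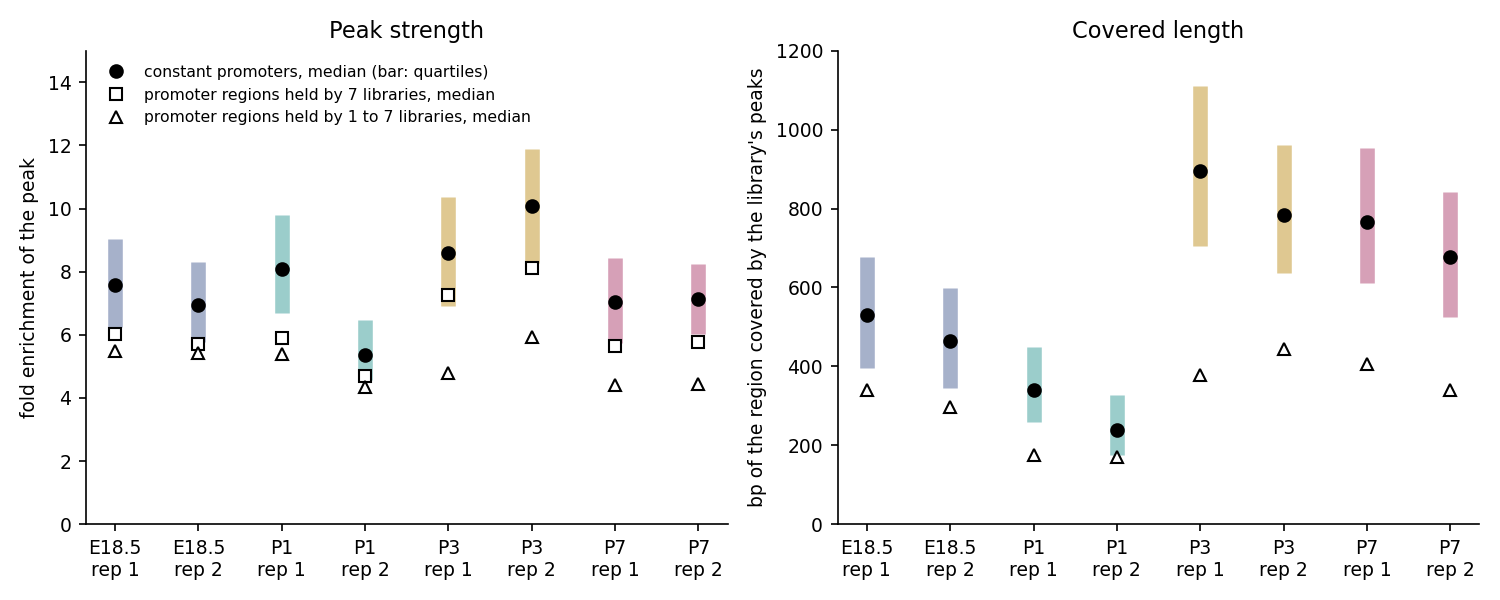
Fold enrichment (left) and base pairs of the region covered by peaks (right) in each of the 8 ATAC-seq libraries, with the median of constant promoters as filled points, their quartiles as bars, and medians of other promoter regions as open symbols. P1 replicate 2 had the lowest median strength (5.36) and coverage (238 bp), and constant promoters lay above the other promoter regions in every library.

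The strongest constant promoters were repeated sequence. All 10 with the highest median fold enrichment (14.7 to 24.7) had a window whose 31-base stretches occurred more than once in the genome, which was true of 169 constant promoters in all (3.74%) and of 6.38% of the other promoter regions. At ranks 11 to 50 it was true of 2. Il31ra, which encodes a cytokine receptor subunit, led with a strength of 19.9 and 25.02 in the E18.5 libraries, 37.8 and 32.2 in P1, 31.5 and 19.9 in P3, and 21.7 and 24.4 in P7. Its region was 328 bp long and lay 2417.5 bp from the start, in an intron, with a median of 3 copies, and the gene's FPKM was at most 0.213 in any library. The next was the predicted miRNA gene Gm24187 (median 23.6, 4 copies).

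Sspn, which encodes the dystrophin-associated protein sarcospan, had a strength of 15.02 to 26.6 from a region of 345 bp and a median of 10 copies, 1195 bp from the start. How reads with several matches were placed is not given in the sources used here, so the strength of these regions cannot be assigned to the copy at the named gene. Among members in single copy, Golph3l, a Golgi protein gene, was strongest, with a fold enrichment of 16.0 and 10.6 in the E18.5 libraries, 13.1 and 7.60 in P1, 20.2 and 18.9 in P3, and 15.1 and 12.7 in P7. It and Tpp2, which encodes a large cytosolic peptidase (median 13.2), were named after their values were seen.

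At the other end, the 2 widest regions lay in the mitochondrial genome and had the lowest strength. The region at mt-Cytb (cytochrome b) was 3805 bp wide with a strength of 1.59 to 1.91, and that at mt-Rnr2 (ribosomal RNA) was 3461 bp wide with 1.26 to 2.04, while the RNA-seq files listed both genes at 0 in all libraries. The widest nuclear regions were at the long noncoding gene Gm15270 (2761 bp) and at Usp9x (2387 bp), which encodes a deubiquitinase. Usp9x had a strength of 4.34 to 5.68 and an FPKM of 8.38 to 12.8 in the 8 libraries. Width and strength were nearly unrelated, with a Spearman's rho of -0.06 over the 4521 constant promoters.

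Relative strength, the log2 fold enrichment minus the library's median over constant promoters, changed by -0.43 to 0.43 between E18.5 and P7 for the central 90% of regions. The largest positive changes were at Ddx10 (1.01), Mical3 (0.92), Fam111a (0.84) and Mia3 (0.84), and the largest negative ones at Gm27702 (-1.08), Map7d1 (-0.99), Asphd1 (-0.94) and Pxylp1 (-0.89), all without overlap between the libraries of both time points, which the naming rule required. At Ddx10, an RNA helicase gene, peak strength was 5.03 and 5.50 in the E18.5 libraries, 12.8 and 7.96 in P1, 10.6 and 12.7 in P3, and 9.65 and 11.2 in P7. Its FPKM was 9.17 and 5.26 in the E18.5 libraries, 12.5 and 9.56 in P1, 12.5 and 11.6 in P3, and 11.1 and 12.2 in P7, and the log2 fold change at P7 was 0.66 ± 0.24 (SE), limma adjusted p = 0.0424, below the fold threshold of 1. At Fam111a, which encodes a protease that restricts viral replication, strength was 5.55 and 3.57 in the E18.5 libraries, 14.03 and 4.34 in P1, 11.03 and 11.5 in P3, and 7.39 and 8.20 in P7. FPKM of Fam111a was 5.32 and 4.15 in the E18.5 libraries, 23.3 and 18.9 in P1, 26.6 and 28.5 in P3, and 29.8 and 31.9 in P7, higher at P7 with no overlap (P7 log2 fold change 2.48 ± 0.16 (SE), limma adjusted p = 1.75e-05). Mical3, an actin-oxidising enzyme gene whose promoter strength was higher at P7, had less RNA then (P7 log2 fold change -1.35 ± 0.25 (SE), limma adjusted p = 0.0023), although only 6.05% of its FPKM came from transcripts that start at the constant promoter. Map7d1, a microtubule-associated protein gene, went from a strength of 7.24 and 6.84 at E18.5 to 3.34 and 3.58 at P7, while its FPKM was 75.4 and 76.0 at E18.5 and 66.1 and 58.5 at P7 (P7 log2 fold change -0.28 ± 0.12 (SE), limma adjusted p = 0.0757). The Pxylp1 window has a median of 9 genomic copies, so its strength is uncertain.

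Genes at constant promoters were mostly expressed in these cells. Of the 4425 genes, 3967 passed the expression filter (2 or more libraries at an FPKM of 1 or above) and were tested, which is 28.4% of the 13979 genes tested. The other 458 did not pass, 418 genes were under FPKM 1 in all 8 libraries, 134 of these protein-coding, and 66 were listed at 0 throughout. Median FPKM of the tested genes was 11.4 to 13.0 per library, against 5.41 to 7.00 for the other tested genes. Among protein-coding genes, median FPKM increased with the number of libraries that held a peak at a promoter of the gene, from 0.00273 with none to 2.88 with 4, 10.6 with 7 and 12.5 with 8. The share with a mean FPKM of at least 1 increased from 15.1% to 95.02%. Eef1a1, the translation elongation factor, had the highest mean, with an FPKM of 3714 and 3662 in the E18.5 libraries, 4159.8 and 3537 in P1, 4291 and 4085 in P3, and 4656 and 4748 in P7. Tnnt2 (cardiac troponin T), Tpm1 (alpha-tropomyosin), Ftl1 (ferritin light chain) and Rplp0 (a ribosomal stalk protein) followed. The window of Ftl1 has a median of 5 genomic copies, so its peaks and FPKM are uncertain.

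At P7, 458 genes with a constant promoter were higher than at E18.5 and 441 were lower, which is 11.5% and 11.1% of the 3967 tested. A gene was called by limma at a Benjamini-Hochberg adjusted p under 0.05 when its log2 fold change also exceeded 1 in either direction, on log2(FPKM + 1), a scale that understates changes of low genes. Over all tested genes the share called was 15.4% higher and 12.3% lower at P7. At P3, 380 were higher and 279 lower (9.58% and 7.03%, against 13.0% and 8.88% over all tested genes), and at P1, 293 were higher and 168 lower (7.39% and 4.23%, against 10.1% and 6.06%). The 3 comparisons share the E18.5 libraries. Median log2 fold change of the constant promoter genes at P7 was 0.09, against 0.14 over all tested genes. The balance of directions depended on the scaling: at P7, TPM gave 791 higher and 358 lower, and median-of-ratios size factors gave 343 higher and 554 lower. Size factors also gave more lower than higher calls at P1 (192 and 265) and at P3 (260 and 400). These scalings moved the median log2 fold change of all genes by 0.18 to 0.21 and by -0.15 to -0.18, so small changes below are relative to that shift.

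The share of genes called in either direction at P7 was not the same for promoters held by few and by many libraries. Among protein-coding genes it was 27.0% with no promoter peak (1263 tested), 38.6% with a peak in 1 library, 36.9% with 4, 26.2% with 7 and 22.5% with 8 (3868 tested), against 27.7% of all genes tested. Genes called higher made up 26.5% of those with a peak in 4 libraries and 11.7% of those with a peak in all 8. Genes called lower made up 21.1% with 1 library and 10.8% with 8. Expression level differed along the same axis, and its part in these shares was not tested. Promoter regions with a peak numbered 17059 to 30743 in the P3 and P7 libraries and 7098 to 12283 in the E18.5 and P1 libraries. Peaks held by few libraries are therefore more often from P3 or P7. The part of list length and time point in these shares was not tested either.

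**Figure D2:**
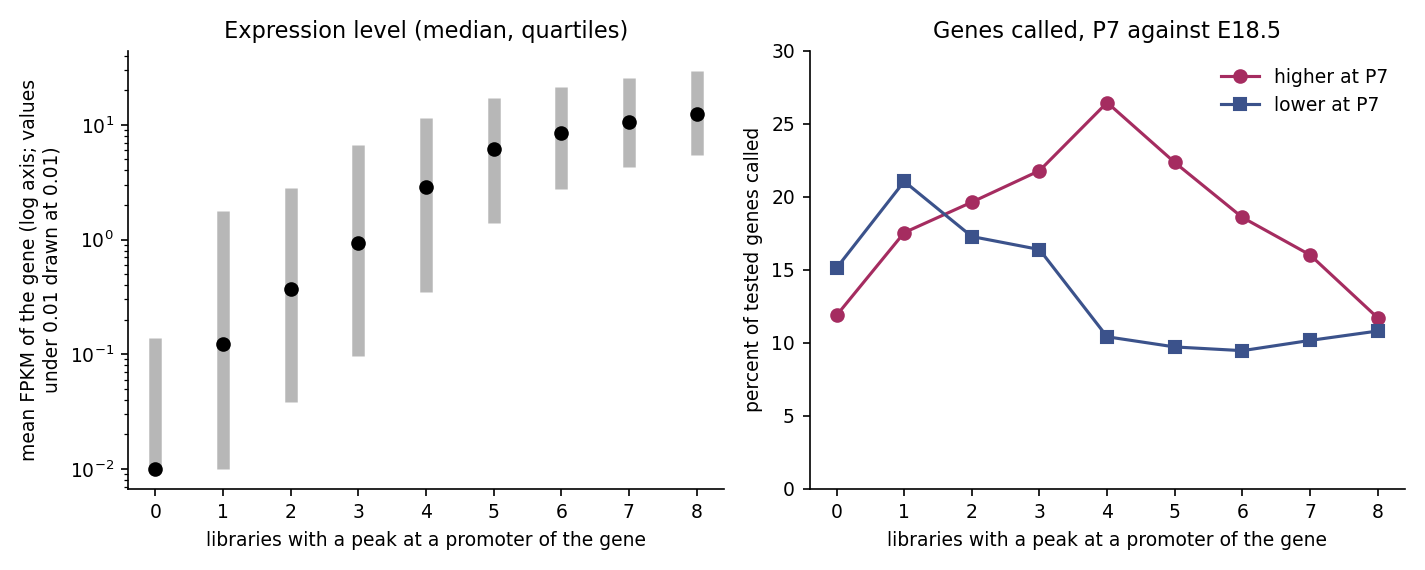
Protein-coding genes grouped by the number of ATAC-seq libraries with a peak at a promoter of the gene, with mean FPKM on a log axis (left; points are medians and bars quartiles) and the percent of tested genes called by limma at P7 against E18.5 (right). Median FPKM increases to 12.5 at 8 libraries, and the share called higher is largest at 4 libraries (26.5%) and 11.7% at 8. The P3 and P7 libraries held more promoter regions than the E18.5 and P1 libraries, so the axis is not independent of time point.

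Pdgfra, Lrp1, H6pd and Fn1 were among the largest rises at P7. Pdgfra, the receptor for platelet-derived growth factor and a fibroblast marker, had an FPKM of 1.40 and 1.65 in the E18.5 libraries, 32.4 and 33.6 in P1, 33.9 and 37.3 in P3, and 47.0 and 51.9 in P7. Both E18.5 libraries lay below all 6 later ones (P7 log2 fold change 4.32 ± 0.13 (SE), limma adjusted p = 2.93e-06). The Pdgfra region at chr5:75155756-75156574 covered the start, and its peaks had a strength of 5.29 and 4.68 in the E18.5 libraries, 6.31 and 5.13 in P1, 5.12 and 7.30 in P3, and 3.93 and 3.61 in P7. Fn1, which encodes the matrix protein fibronectin, had an FPKM of 84.8 and 81.5 in the E18.5 libraries, 455 and 528.02 in P1, 554 and 661 in P3, and 749 and 869 in P7 and also did not overlap between E18.5 and the later time points (P7 log2 fold change 3.26 ± 0.14 (SE), limma adjusted p = 5.34e-06). Lrp1, an endocytic receptor, rose by 3.56 ± 0.39 on the log2 scale, and its region ended before the start. H6pd, a hexose-6-phosphate dehydrogenase of the endoplasmic reticulum, rose by 3.44 ± 0.13. Bst2, an interferon-induced membrane protein, Lgals1, a galectin, and Snai1, a repressor of epithelial genes, rose by 3.13 to 3.20. Transcripts that start at the constant promoter gave 24.8% of the FPKM for Fn1, 43.6% for Lrp1 and 57.5% for H6pd. They gave 88.2% for Pdgfra (33.5% at E18.5). For Bst2 and Lgals1 they gave 100% by construction, since both annotated transcripts of each gene start there. Transcript model Gm49450, the second in size of change (3.94 ± 1.22), spans the tubulin genes Tuba1a and Tuba1b and is listed at 25.3 and 0 at E18.5, so its value is uncertain. Without E18.5 replicate 1 it was 6.30 and without replicate 2 it was 1.58, and it was not called without either P7 library.

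Tnni1, Cited1, Adprhl1 and Hspa1a had the largest falls at P7. Tnni1, the troponin I of slow and fetal muscle, had an FPKM of 1456 and 1832 in the E18.5 libraries, 251 and 379.5 in P1, 111 and 83.9 in P3, and 28.5 and 12.7 in P7. Each time point lay below the one before, with no overlap of libraries (P7 log2 fold change -6.34 ± 0.35 (SE), limma adjusted p = 1.03e-05). At the same region the strength of the peaks was 6.03 and 6.07 in the E18.5 libraries, 6.71 and 3.39 in P1, 6.07 and 4.06 in P3, and 6.28 and 3.95 in P7. Cited1, a transcriptional co-activator, had an FPKM of 85.6 and 106 in the E18.5 libraries, 11.8 and 17.6 in P1, 3.72 and 2.81 in P3, and 1.46 and 0.782 in P7 (P7 log2 fold change -5.52 ± 0.24 (SE), limma adjusted p = 5.34e-06). Srl (sarcalumenin of the sarcoplasmic reticulum), Hopx (an atypical homeodomain protein), Rbm24 (a muscle splicing factor) and Adprhl1 (an ADP-ribosylhydrolase-like protein of the heart) fell by 4.32 to 4.90 on the log2 scale. For Srl only 1.00% of the FPKM came from transcripts that start at the constant promoter. The summed cardiomyocyte markers were also lower in these P7 libraries.

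**Figure D3:**
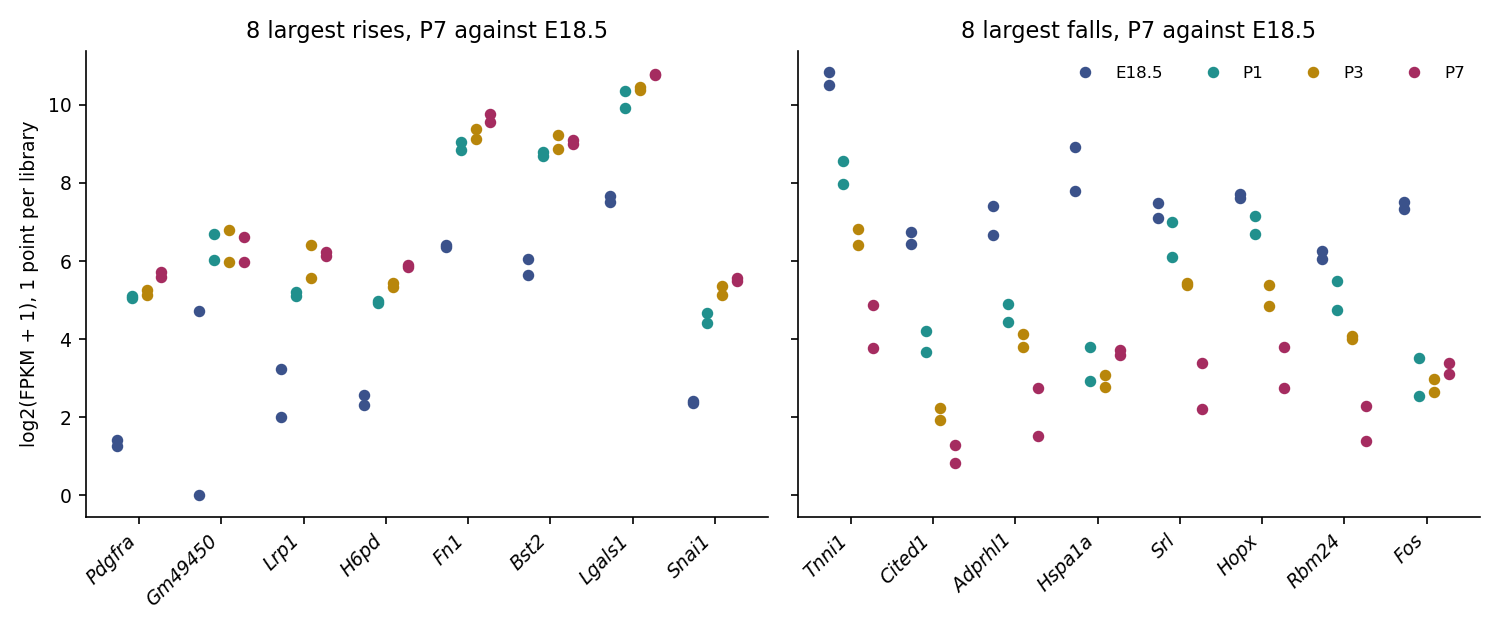
Expression of the 8 constant promoter genes that rose most and the 8 that fell most at P7, as log2(FPKM + 1), with 1 point per RNA-seq library coloured by time point. E18.5 and P7 libraries do not overlap for any of the 16 genes, which the naming rule required, and the E18.5 libraries of Gm49450 stand far apart at 25.3 and 0 FPKM.

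Other large differences were already present at P1. Clu, which encodes the extracellular chaperone clusterin, had an FPKM of 84.6 and 86.7 in the E18.5 libraries, 552 and 1132 in P1, 827 and 873 in P3, and 492 and 365 in P7 and was higher at P1 (P1 log2 fold change 3.19 ± 0.30 (SE), limma adjusted p = 0.000215). Slc9a3r1, a scaffold protein of the cell cortex, was at 5.81 and 8.65 at E18.5 and 49.0 and 78.1 at P1 (P1 log2 fold change 2.96 ± 0.29 (SE), limma adjusted p = 0.000256). Pdk4, the kinase that blocks pyruvate dehydrogenase, had one of the stronger promoters, with a strength of 12.4 and 11.4 in the E18.5 libraries, 8.63 and 7.48 in P1, 11.4 and 13.998 in P3, and 10.8 and 8.74 in P7. Its FPKM dropped from 58.1 and 54.7 at E18.5 to 6.49 and 7.31 at P1 (P1 log2 fold change -2.86 ± 0.30 (SE), limma adjusted p = 0.000361).

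Other constant promoters served genes with nearly the same FPKM in all 8 libraries. Among genes with a mean FPKM of at least 10, the smallest range belonged to Sh3glb1, at 61.5 and 62.1 in the E18.5 libraries, 61.6 and 62.1 in P1, 62.7 and 62.5 in P3, and 62.2 and 64.1 in P7. Its peaks ranged from 4.34 to 8.74 in strength. The gene was chosen for its small FPKM range, and strength is not scaled between libraries. Medians of strength over all constant promoters ranged from 5.36 to 10.07 between libraries, so the spreads of strength and FPKM cannot be compared here. Trim28, a co-repressor that silences transposons, stayed between 88.9 and 97.6 FPKM, Hdac2, a histone deacetylase, between 45.7 and 50.4, and Puf60, a splicing factor, between 87.3 and 97.5. Pcnp, a nuclear protein, stayed between 43.8 and 49.0. With size factors the log2 fold change of Sh3glb1, P7 against E18.5, was -0.15 instead of 0.03, so this steadiness is relative to the FPKM scale.

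All 20 respiratory chain and ATP synthase genes with a constant promoter fell at P7, with a median log2 fold change of -1.94. These genes encode the mitochondrial complexes that pass electrons to oxygen and make ATP, and 20 of 77 tested (25.97%) had a constant promoter. Of the other 57, 55 fell, with a median of -1.87. In all lists a gene has a constant promoter only when its start is the nearest to the region. Some of the other genes therefore have a start within 2.5 kb of one. Counted by any such start, the respiratory list had 22 genes and not 20. Mitochondrial ribosomal proteins had 28 and not 20, RNA polymerase II and Mediator 15 and not 11, and glycolysis 11 and not 10. The share called lower at P7 over all tested genes was 12.3%. Atp5g1, a subunit of the ATP synthase ring, had an FPKM of 1058 and 1405 in the E18.5 libraries, 522 and 621 in P1, 421 and 342 in P3, and 178 and 109 in P7 (P7 log2 fold change -3.12 ± 0.25 (SE), limma adjusted p = 3.72e-05). Ndufv1, a core subunit of complex I, had an FPKM of 137 and 183 in the E18.5 libraries, 68.5 and 89.9 in P1, 53.1 and 49.6 in P3, and 31.3 and 24.96 in P7 (P7 log2 fold change -2.46 ± 0.19 (SE), limma adjusted p = 3.58e-05). At the Ndufv1 promoter, whose window above holds an E box, the strength was 10.8 and 8.28 in the E18.5 libraries, 12.6 and 6.44 in P1, 13.5 and 16.7 in P3, and 12.6 and 8.04 in P7, which overlaps between E18.5 and P7. Uqcrc2 of complex III and Sdhb of complex II fell by 2.40 ± 0.15 and 2.37 ± 0.15. With TPM 19 of the 20 fell and with size factors all 20.

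Fatty acid oxidation showed the same direction. Of 9 genes with a constant promoter (of 20 tested), 7 fell at P7 and the median was -2.42, against 9 of the 11 others and -2.06. Acsl1, which activates long-chain fatty acids, was at 93.6 in both E18.5 libraries and at 11.8 and 4.78 at P7 (P7 log2 fold change -3.46 ± 0.33 (SE), limma adjusted p = 7.98e-05). Acadm, the medium-chain acyl-CoA dehydrogenase, had an FPKM of 219.8 and 258 in the E18.5 libraries, 97.2 and 119 in P1, 64.4 and 61.6 in P3, and 30.3 and 22.8 in P7 (P7 log2 fold change -3.13 ± 0.17 (SE), limma adjusted p = 9.75e-06). The 1 gene that rose, Cpt1a, the liver form of carnitine palmitoyltransferase, was named after its value was seen (1.19). Glycolysis was mixed, with 1 of 10 genes higher (Pgam1, phosphoglycerate mutase, 1.42 ± 0.13) and 2 lower (Pfkp and Aldoa) and a median of -0.02. Over all genes tested at P7, 15.4% were called higher and 12.3% lower. With TPM 2 glycolysis genes were higher and 1 lower (median 0.25), and with size factors 1 was higher and 2 lower (median -0.20). Of the 10 glycolysis genes without a constant promoter, 6 fell and 1 rose, with a median of -2.62. Cardiomyocyte marker sums were lower in the same P7 libraries, and their part in these metabolic genes was not tested.

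Immediate early genes, which respond to stimuli within minutes, had constant promoters at 16 of 22 tested (72.7%, against 28.4% of all tested genes), and 12 of the 16 fell at P1. None of the 16 was higher at P1 by limma or limma-voom, nor at an unadjusted p under 0.05. The share called lower at P1 over all tested genes was 6.06%. The median log2 fold change of the 16 was -1.73 (P1), -1.51 (P3) and -1.29 (P7). Fos, a subunit of AP1, had an FPKM of 160.3 and 182 in the E18.5 libraries, 4.81 and 10.4 in P1, 5.22 and 6.95 in P3, and 7.61 and 9.56 in P7. All 6 later libraries lay below both E18.5 libraries (P1 log2 fold change -4.40 ± 0.30 (SE), limma adjusted p = 5.8e-05). Its constant region lay 1583 bp before the start, at chr12:85472050-85472564, and did not cover it. Atf3, a stress-induced factor, had an FPKM of 142 and 205 in the E18.5 libraries, 10.51 and 14.04 in P1, 8.14 and 6.78 in P3, and 11.8 and 11.8 in P7 (P1 log2 fold change -3.71 ± 0.21 (SE), limma adjusted p = 3.66e-05), and its region of 1472 bp did cover the start. Jun, the partner of Fos, fell by 2.38 ± 0.25 and the nuclear receptor Nr4a1 by 2.66 ± 0.18 at P1. Peaks at these promoters were on the weak side, with a median strength of 5.26 over the 16 genes against 7.503 over all constant promoters.

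In the AP1 family, 10 of 17 tested genes had a constant promoter, 5 of them fell at P1 and 4 at P7, and the median strength was 5.20. This list shares Fos, Jun, Junb and Atf3 with the immediate early genes. Among all tested genes, 6.06% were called lower at P1 and 12.3% at P7. Atf4, a factor of the stress response, was at 399 and 332 at E18.5 and 133 and 126 at P1 (P1 log2 fold change -1.48 ± 0.13 (SE), limma adjusted p = 0.000186). Heat shock chaperones had a constant promoter at 16 of 22, and 6 of the 16 fell at P7 (against 12.3% of all tested genes), with a median of -0.75. Hspa1a, the inducible HSP70, had an FPKM of 221 and 483 in the E18.5 libraries, 6.59 and 12.9 in P1, 5.80 and 7.48 in P3, and 11.1 and 12.3 in P7 (P1 log2 fold change -4.999 ± 0.38 (SE), limma adjusted p = 9.36e-05). Its window has a median of 2 genomic copies, so reads shared with a near-identical copy make its peaks and FPKM uncertain. Hspb6 and Cryab, small heat shock proteins abundant in muscle, fell at P7 by 2.51 ± 0.28 and 1.65 ± 0.18. Digestion of the tissue was part of the preparation at every time point, and its part in these genes was not tested.

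Genes of protein synthesis and turnover with a constant promoter, by contrast, seldom passed the threshold. Of the genes without one, limma called higher at P7 0 of 50 cytosolic ribosomal, 1 of 18 proteasome, 1 of 5 chaperonin and 2 of 9 tRNA synthetase genes. For RNA polymerase II and Mediator it was 1 of 29, and none was called lower in these lists. The median of those 9 tRNA synthetases was 0.88, against 0.34 for the 10 with a constant promoter. Of 29 cytosolic ribosomal protein genes with a constant promoter (of 79 tested), limma called none at P7 and limma-voom called none, while at an unadjusted p under 0.05, 19 were higher and 1 was lower. The median was 0.43, and 0.70 with TPM, where 3 were called higher, and 0.25 with size factors. Rps12, of the small subunit, had an FPKM of 685 and 692 in the E18.5 libraries, 871 and 698 in P1, 994 and 960.5 in P3, and 1223 and 1310.5 in P7 (P7 log2 fold change 0.88 ± 0.14 (SE), limma adjusted p = 0.001), under the fold threshold. Many ribosomal protein genes have processed pseudogenes elsewhere in the genome that could take part of their reads. None of 13 proteasome subunits with a constant promoter was called at P7 by limma or limma-voom (median 0.39, 9 higher at an unadjusted p under 0.05). For 10 cytosolic tRNA synthetases the counts were likewise 0 by both tools, with 4 higher unadjusted. For 11 subunits of RNA polymerase II and Mediator they were 0 by both, with 3 higher and 2 lower unadjusted. For 3 chaperonin subunits, such as Tcp1, they were 0 by both, with 2 higher unadjusted. Some genes of these lists passed the adjustment at P7 and missed only the fold threshold. Upward these include Rps19 (0.87, limma adjusted p = 0.00054), Psmd2 (0.67, limma adjusted p = 0.00114) and Eprs (0.82, limma adjusted p = 0.00272). Downward they include Rps24 (-0.37, limma adjusted p = 0.0329) and Med13 (-0.56, limma adjusted p = 0.0206).

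Single members of these lists did pass. For comparison, 15.4% of all tested genes were called higher and 12.3% lower at P7. Among 17 translation initiation factors, Eif2b3 rose (1.29 ± 0.16) and Eif5 and Eif4a2 fell (by 1.08 ± 0.21 and 1.00 ± 0.14). Eif5 was not called without P7 replicate 2 (-0.75), and neither Eif5 nor Eif4a2 was called lower with TPM. Among 18 spliceosome proteins, Snrpg rose by 1.04 ± 0.13, which was not called with size factors. Mitochondrial ribosomal proteins had 20 constant promoters among 78 tested genes, of which 1 rose (Mrpl17) and 5 fell at P7, with a median of -0.42. With TPM 1 was higher and 1 lower (median -0.17), and with size factors 1 was higher and 6 lower (median -0.60). In autophagy, Rb1cc1, Atg10 and Ulk1 fell and Atg4c rose among 10 genes, and without an E18.5 library Atg10 (replicate 2, -0.98) and Atg4c (replicate 1, 1.00) were not called.

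DNA replication and mitosis genes moved upward where they were called. Of 14 with a constant promoter (of 32 tested), 4 rose at P7 and none was called lower by limma or limma-voom, with 10 higher and 0 lower at an unadjusted p under 0.05. Of all genes tested at P7, 15.4% were called higher, and of these 14 TPM called 7 and size factors 3. The median was 0.69, and the other 18 genes had a median of 0.49 with 4 higher. Mcm4, a subunit of the replicative helicase, had an FPKM of 9.66 and 14.3 in the E18.5 libraries, 38.3 and 26.3 in P1, 38.3 and 34.8 in P3, and 32.1 and 29.4 in P7 (P7 log2 fold change 1.31 ± 0.22 (SE), limma adjusted p = 0.00135). Mcm3, another subunit of it, rose by 1.23 ± 0.18 and Rrm1, the large subunit of ribonucleotide reductase, by 1.27 ± 0.16. Cdk1, the mitotic kinase, rose by 1.07 ± 0.21 and was not called with size factors or without P7 replicate 1 (0.93). Fibroblast and smooth muscle marker sums were higher in the same P7 libraries.

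Regulators of the heart split by gene. Of 7 cardiac transcription factors with a constant promoter (of 23 tested), Hey2 and Esrra fell at P7, and 10 of the 16 without one fell. Among all tested genes, 15.4% were called higher and 12.3% lower at P7. Hey2, a repressor in the Notch pathway, had an FPKM of 16.6 and 19.1 in the E18.5 libraries, 2.20 and 2.82 in P1, 1.46 and 1.54 in P3, and 0.740 and 0.961 in P7 (P7 log2 fold change -3.35 ± 0.17 (SE), limma adjusted p = 8.35e-06). Mef2a, a muscle transcription factor, was at 20.4 and 17.7 at E18.5 and 9.66 and 9.83 at P7 (P7 log2 fold change -0.90 ± 0.13 (SE), limma adjusted p = 0.000652), under the fold threshold. In the list of MEF2 factors and histone deacetylases, Hdac1 rose (1.32 ± 0.13) among 4 genes with a constant promoter, and 4 of the 7 without one fell.

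Marker genes of single cell types rarely had a constant promoter. Cardiomyocyte markers had one at 4 of 24 genes: Tnnt2, Ldb3 and Tnni1 fell at P7, and Ankrd1, a stretch-responsive muscle protein, was higher at P1 (P1 log2 fold change 1.37 ± 0.20 (SE), limma adjusted p = 0.00139) and had a log2 fold change of -0.35 ± 0.20 at P7 (adjusted p = 0.17). All 20 cardiomyocyte markers without one fell. Fibroblast markers had one at 2 of 14 (Pdgfra and Fn1), and extracellular matrix genes at 3 of 34 (Fn1, Sparc and Lamc1). None of the 13 endothelial, 11 smooth muscle and pericyte, 10 macrophage, 8 erythroid and 7 epicardial markers tested had one, against 28.4% of all tested genes.

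**Figure D4:**
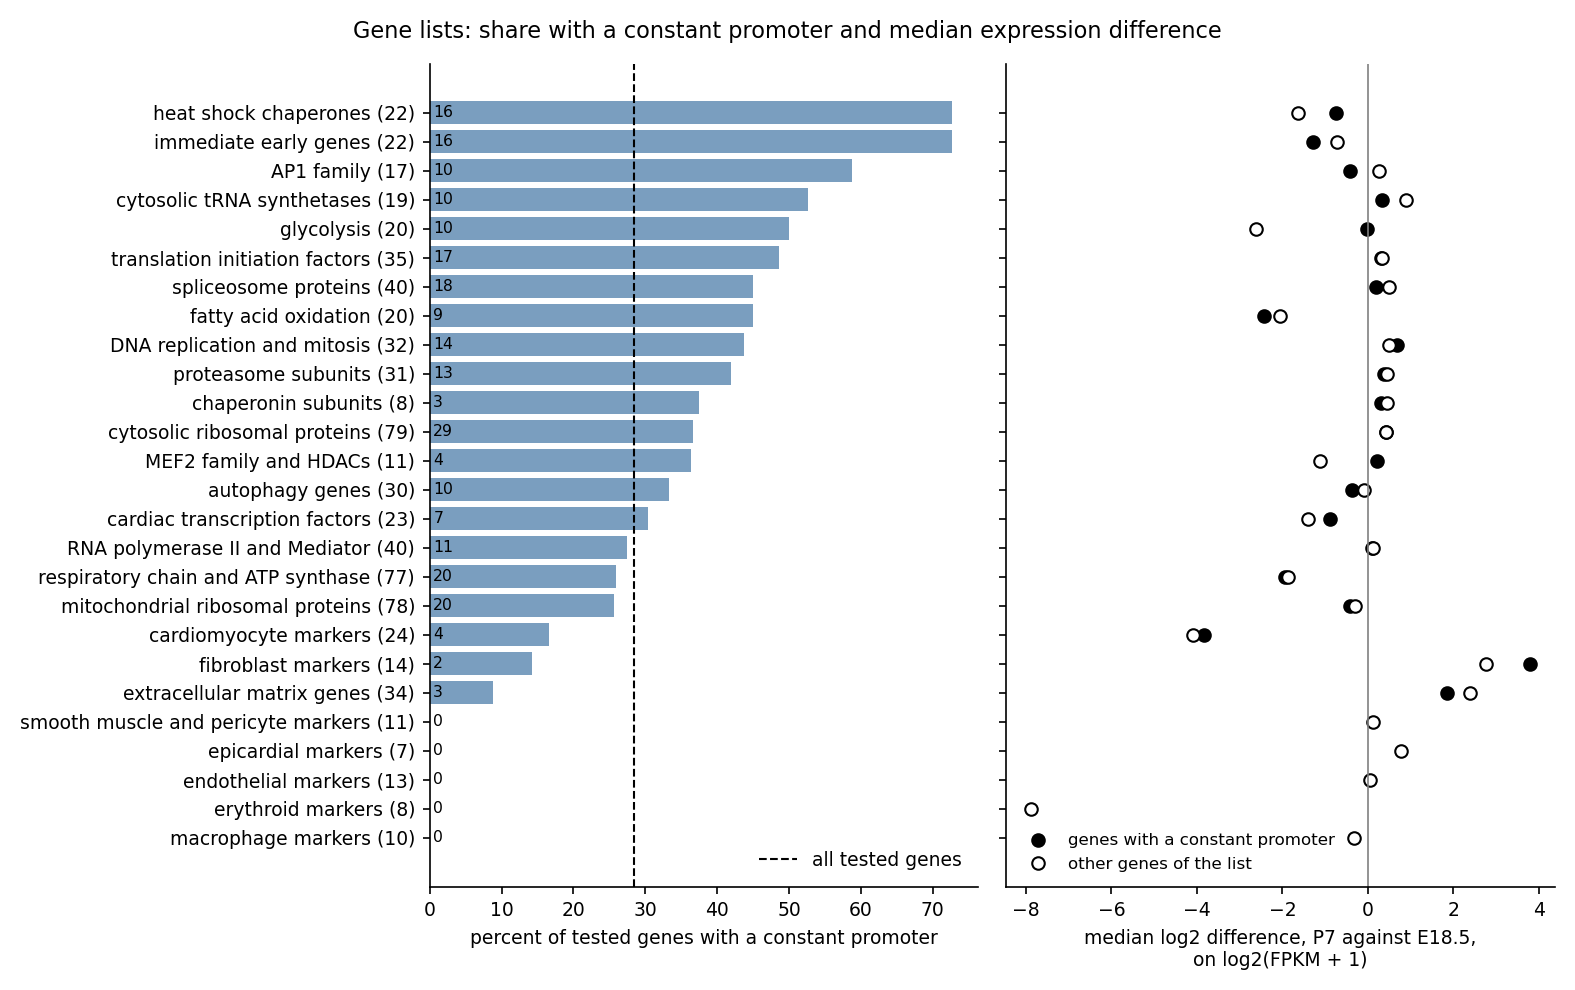
Percent of the tested genes of each of 26 lists that have a constant promoter (left; the number beside the axis is the count and the number after the name the genes tested) and the median log2 fold change at P7 of list genes with (filled) and without (open) one (right). Heat shock and immediate early genes have the largest shares (72.7%), 5 cell type lists have none, and respiratory chain medians are -1.94 and -1.87. Genes are assigned by the nearest start, so open points can include genes with another start within 2.5 kb of a constant promoter.

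Some constant promoters were shared by genes that run in opposite directions. At 1091 constant promoters (24.1%) starts on both strands lay within 1000 bp of each other and pointed away. This share was not worked out for other promoter regions. Of 583 such pairs with both genes tested, 411 had neither gene called at P7, 146 had 1 called, 21 had both called in the same direction and 5 in opposite directions. Taken singly, 22.7% of tested genes with a constant promoter and 27.7% of all tested genes were called at P7. Whether the pair counts differ from what these shares would give was not tested. Idh3g, a subunit of the isocitrate dehydrogenase of the citric acid cycle, and Ssr4, a subunit of the complex that passes proteins into the endoplasmic reticulum, start 131 bp apart at chrX:73786424-73787521. FPKM of Idh3g was 274 and 324 in the E18.5 libraries, 127 and 163 in P1, 109 and 100.4 in P3, and 68.5 and 63.2 in P7 (P7 log2 fold change -2.16 ± 0.15 (SE), limma adjusted p = 2.63e-05). Ssr4 had an FPKM of 46.0 and 49.2 in the E18.5 libraries, 87.9 and 78.1 in P1, 95.4 and 94.2 in P3, and 114 and 143 in P7 (P7 log2 fold change 1.40 ± 0.14 (SE), limma adjusted p = 9.97e-05). The window shown above lies in this region, with an ETS core, a YY1 match and the Ssr4 start at base 156, and the peaks there had a strength of 7.04 and 5.38 in the E18.5 libraries, 8.18 and 4.49 in P1, 8.30 and 9.48 in P3, and 7.15 and 5.70 in P7.

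The other 4 pairs showed the same kind of split. Fbxo44 and Fbxo2, both F-box proteins of ubiquitin ligases, start 139 bp apart: Fbxo44 had an FPKM of 17.7 and 15.02 in the E18.5 libraries, 6.44 and 9.23 in P1, 4.88 and 5.13 in P3, and 3.88 and 2.96 in P7 (P7 log2 fold change -1.98 ± 0.20 (SE), limma adjusted p = 0.000109). Fbxo2 was at 0.476 and 0.680 at E18.5 and 4.04 and 3.47 at P7 (P7 log2 fold change 1.59 ± 0.18 (SE), limma adjusted p = 0.00018). Pld3, a lysosomal nuclease, rose by 2.12 ± 0.18 while 2310022A10Rik, which starts 15 bp away, fell by 1.15 ± 0.19 and was not called without P7 replicate 2 (-0.89). Actg1, the cytoplasmic gamma actin, rose by 1.45 ± 0.15 and 0610009L18Rik, 136 bp away, fell by 1.69 ± 0.16, with the constant region centred 1722.5 bp downstream of the latter's start and covering neither start. The last pair was Dnajb4, an HSP40 co-chaperone that fell by 1.52, and Fubp1, a single-strand DNA binding protein that rose by 1.11.

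Promoter strength and expression were close to unrelated among constant promoters. Over 3967 genes, Spearman's rho between strength and FPKM was -0.07 in E18.5, -0.02 in P1, -0.16 in P3 and -0.13 in P7 libraries. Median FPKM was 17.03 in the 25% of genes with the weakest constant promoters (992 genes) and 10.6 in the 25% with the strongest (992 genes). The change in relative strength and the log2 fold change had a rho of -0.05 at P1, 0.03 at P3 and 0.04 at P7. At P7 the median change in relative strength was -0.01 for the 458 genes called higher, -0.04 for the 441 called lower and -0.02 for the 3068 not called. The NF-Y letters were in 14.1% of the 1129 windows with the strongest peaks and in 5.05% of the 1129 with the weakest, and these windows also lay nearer the start (median 60.5 against 126 bp).

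**Figure D5:**
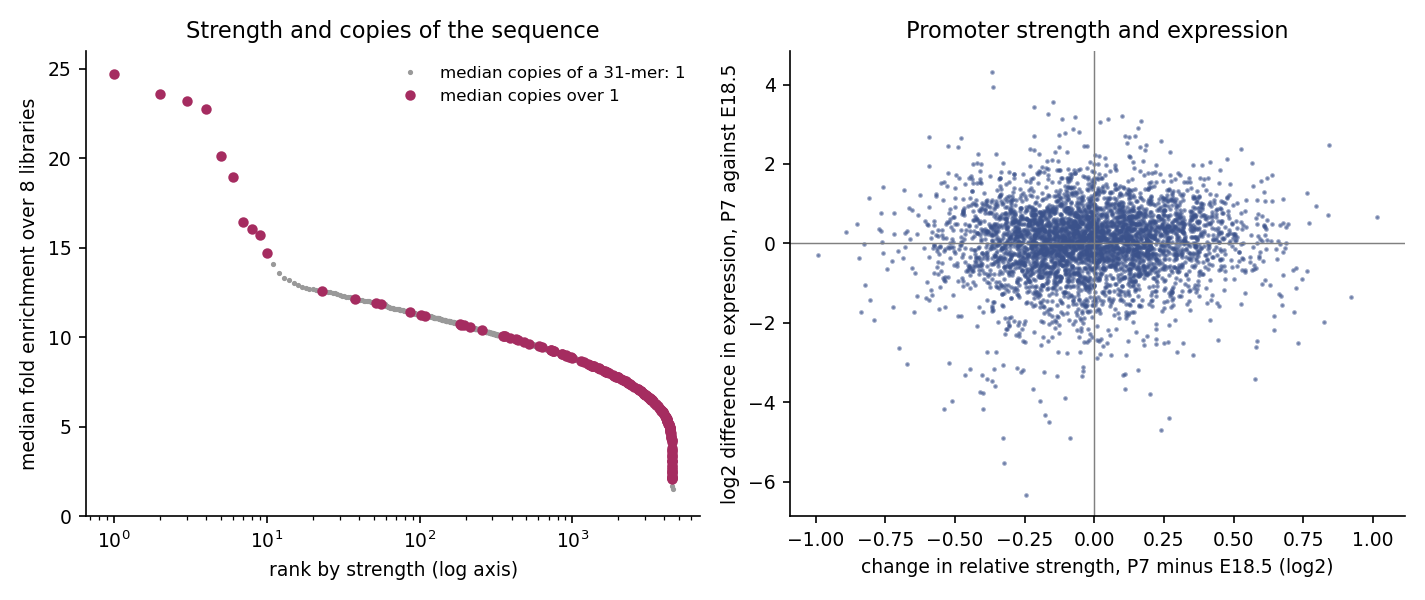
Median fold enrichment of each constant promoter against its rank on a log axis, with windows of more than 1 genomic copy in red (left), and the change in log2 relative strength from E18.5 to P7 against the log2 fold change in expression of the gene (right; 1 point per gene). The 10 strongest are all multi-copy (14.7 to 24.7), and the cloud on the right has a rho of 0.04.

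Most of the expression at these genes came from the promoter that was held open. Per gene, transcripts with a start within 2.5 kb of the constant promoter's midpoint made up a median of 98.3% of the FPKM, and at least 90% in 2939 genes (74.1%). In 95 genes (2.39%) they made up less than 10%, so the constant promoter was not the one in use by this measure. Eif3b, an initiation factor subunit with a mean FPKM of 126, drew 0.302% from such transcripts, and Tgm2, a transglutaminase, 0.219%. Park7, an oxidative stress protein, drew 2.73% and Itga5, the fibronectin receptor subunit, 1.45%; these 4 genes were named after their values were seen. StringTie divides reads among overlapping transcripts by estimation, which limits these shares. In 88 genes there were 2 or more constant promoters, with 3 each at Lmna (nuclear lamins A and C) and Rusc2.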

How the data were processed

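ATAC-seq peaks of 8 mouse libraries and expression tables of 8 mouse RNA-seq libraries were used, and 6 rat libraries were not. Per the study's methods, the authors trimmed ATAC-seq reads, aligned them to mm10 with bowtie2, removed duplicates with Picard, called peaks in each library with MACS2 and dropped blacklisted peaks. The deposited peak lists hold a score, the fold enrichment (a ratio), -log10 p-values and -log10 q-values per peak. The authors' StringTie tables give FPKM, TPM and coverage per transcript on GENCODE vM21, and the submitters' notes name HISAT2 2.1.0 and StringTie 1.3.5. The authors' own expression test ran on counts that are not used here, so FPKM was tested instead of counts.

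Peaks overlapping by 1 bp were merged, and the highest fold enrichment of a library in a region was taken. Transcript starts came from the deposited StringTie annotation. FPKM of transcripts was summed per gene, filtered at 1 in at least 2 libraries and fitted as log2(FPKM + 1) over all 4 time points in limma 3.58.1 (R 4.3.3), with Benjamini-Hochberg adjustment over 13979 genes. The fit was tested on simulated data. Genomic copies are exact matches of 31-base stretches of the 200 bp window, on both strands of the assembled chromosomes and mitochondrial genome of GRCm38. Copies outside these sequences are not counted. Python 3.11.15, pandas 2.3.3, scipy 1.17.1 and pysam 0.24.0 were used, and sequences and RefSeq promoter windows are of GRCm38. An island-like window had over 50% GC and an observed to expected ratio over 0.6.

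Named genes were those of largest rise or fall without overlap of libraries, strongest, widest, steadiest or most expressed, of largest change in relative strength, in opposite pairs, and up to 4 per list by size of change. The regions and the gene lists were chosen with earlier results of these data known. Replicates are separate samples per the labels, and p-values measure only the spread between them. Depth of the ATAC-seq libraries is not given in the sources used here, so their fold enrichments carry no interval. Alternatives covered merging, promoter limit, list length, scaling, filter, pseudocount, model and each library left out. The sequence of 1 repeated window is not reported here.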

Additional observations from a re-analysis of the deposited data

How the results depend on the processing

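The number of constant promoter regions was 4521, between 4247 and 4662 under other merging, promoter limits or RefSeq starts, and 4350 without multi-copy and mitochondrial regions, an alternative chosen after seeing the data. It fell to 257 when each library's peaks had to cover at least 0.5 of the region, to 2746 with lists of equal length and to 2366 with the upper 50% of each list by fold enrichment. Leaving out 1 library gave 4512 to 6671.

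The counts named genes at constant promoters called higher, P1 against E18.5, and genes at constant promoters called lower, P1 against E18.5, were 590 higher and 130 lower with TPM, 192 higher and 265 lower with median-of-ratios size factors, and 174 higher and 99 lower for members from lists of equal length. Leaving out 1 library gave 259 to 349 higher and 154 to 214 lower. For genes at constant promoters called higher, P3 against E18.5, and genes at constant promoters called lower, P3 against E18.5, TPM gave 691 higher and 208 lower, size factors 260 higher and 400 lower, lists of equal length 226 higher and 159 lower, and leaving out 1 library 355 to 449 higher and 258 to 312 lower. For genes at constant promoters called higher, P7 against E18.5, and genes at constant promoters called lower, P7 against E18.5, TPM gave 791 higher and 358 lower, size factors 343 higher and 554 lower, lists of equal length 272 higher and 263 lower, and leaving out 1 library 423 to 517 higher and 415 to 465 lower. Fewer members enter with lists of equal length; the cause of the shifts with scaling was not tested. The share of higher calls at P7 was 50.9% with FPKM, 68.8% with TPM and 38.2% with size factors.

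With the replicate number as a block the counts were 293 higher and 169 lower (P1), 381 higher and 281 lower (P3), and 458 higher and 444 lower (P7). Over genes, the deviation of replicate 1 from its group mean correlated between time points at -0.0964 to 0.171 (6 pairs). With 2 libraries per time point, these values cannot decide whether same-numbered libraries share a batch.

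Among fold changes of named genes, 1485 comparisons with an alternative kept direction and side of the threshold, 25 (of 12 genes) lost the call, 5 gained it, and the log2 fold change of Sh3glb1, P7 against E18.5, turned from 0.03 to -0.15 with size factors, not called in either.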

Other observations

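The share of tested genes with a constant promoter differed between chromosomes. It was 14.8% on X (69 of 465 genes) and 10% on Y (1 of 10), and between 25.1% (chromosome 6) and 33.9% (chromosome 16) on the autosomes.

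Among protein-coding genes with a constant promoter but under 10% of FPKM from its transcripts, Fam129b drew 0.0441%, Slc7a5, an amino acid transporter, 0.122%, Rcc2, a mitotic regulator, 0.461% and Ubtf, a factor of ribosomal RNA transcription, 1.22%. Gm11168 had 4 constant promoters, and Duxf3, Gm10721, Muc19 and Sfi1 had 3 each.

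Gm11407, a processed pseudogene with a strength of 12.5 to 20.8, lay in sequence of which 40% of 31-base stretches occur in the mitochondrial genome.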
